A study of Homo sapiens and Mus musculus with 41 samples.

Results

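The hypoxia response and glycolysis genes described here are 39 genes chosen by their symbols: transcription factors of the response to low oxygen, oxygen-dependent dioxygenases, secreted and surface proteins of pH control and vessel growth, and the transporters and enzymes that take glucose to pyruvate. The rule uses symbols alone. Each of the 3 human tables holds a row for all 39 among its 23368 genes, and the mouse table for 37 among 23337, with no row named Ca12 or Gpi. A member was tested where its normalized count reached 10 in at least 2 libraries of a model. That left 38 members in HCC1954 (ANKRD37 was under the limit), 39 in MDA-MB-231, 39 in PC9 and 36 in LLC (Eno1 was under it).

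When oxygen is plentiful, prolyl hydroxylases of the EGLN family mark the alpha subunits HIF1A and EPAS1 (HIF-2 alpha) for destruction. When it is scarce, the subunits persist, pair with ARNT and bind DNA at sites with a short core, and switch on genes for glucose uptake, glycolysis, acid export and vessel growth. The control of the subunits is mostly on the protein, so their messages are not a measure of their activity. Many of the target genes are also read out by other signals, and tumour cells often run glycolysis fast with oxygen present.

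The study profiled RNA of tumour cells grown in culture, in 41 libraries from 4 models. Of the human lines, HCC1954 is a ductal breast carcinoma with elevated HER2, MDA-MB-231 a breast carcinoma without ER, PR and HER2, and PC9 a lung adenocarcinoma with elevated EGFR. The mouse model is Lewis lung carcinoma (LLC), from the C57/B6 strain. Par stands for parental cells, Lep for cells taken from leptomeningeal metastases, Int for an intermediate stage and BrM for cells from brain metastases. For Par, Int, Lep and BrM there were 3, 2, 3 and 2 libraries of HCC1954, 3, 2, 2 and 3 of either MDA-MB-231 or PC9, and 3, 2, 3 and 3 of LLC. All parental lines stably carry GFP, and no treatment is named. Leptomeningeal cells were washed out of the leptomeninges of mice, grown on plastic in medium with 10% serum until uniformly GFP-positive, and passaged 3 times, so the values describe cultured cells under ordinary culture conditions and not cells in the mouse. The series describes the Par replicates as technical and those of Int and Lep as biological and technical without telling them apart. The p-values therefore measure the spread between these libraries. In cultured bulk cells, fewer cells that use a gene and less RNA per cell cannot be told apart.

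Recovered depths ran from 16792027 to 110830546 reads per library, and 3 reads, the most that a 0 allows, correspond to 1.31 to 6.55 normalized counts. Epithelial EPCAM and KRT8 were present in HCC1954 and PC9, VIM was high in MDA-MB-231, and LLC had Epcam between 0 and 2.56 with Krt18 at 2200 to 14000. In HCC1954, KRT19 read 42800 to 43300 in Par and 322 to 967 in the derivatives, KRT8 73800 to 75100 in Par and 15700 to 16700 in Lep, and VIM 142 to 165 in Par and 1480 to 1840 in Lep. ERBB2 (HER2) read 57500 to 59600 in Par, 152000 to 153000 in Int, 144000 to 151000 in Lep and 395000 to 399000 in BrM. EGFR read 9400 to 9850 in Par and 12700 to 13700 in Lep, and CDH1 21300 to 21800 and 20200 to 20800. EGFR in PC9 read 9150 to 9750 in Par but 1530 to 1930 in Lep and 1600 to 1870 in Int. VIM in PC9 read 39.2 to 64.7 in Par and 1830 to 2190 in BrM. In LLC the macrophage and microglia list (8 symbols, 2 past the filter) summed to 5545 to 5982 in Int against 635 to 693 in Par and 581 to 1030 in Lep and BrM. Cd68 alone made up 5160 to 5590 of the Int sum, while the defining markers Csf1r, Aif1, Itgam and Ptprc were each at or under 3.84 there. In LLC Lep replicate 2 Csf1r read 48.6, Ptprc 21.7 and Itgam 11.5, against at most 1.28, 5.11 and 7.67 in the other Lep libraries and 0.664, 0.711 and 1.42 in Par. Sums of the endothelial list stood at 4941 to 4952 in HCC1954 BrM and 890 to 975 in Par. The deviation of each human library from its gene means also varied with exon length. In PC9 the Spearman correlation across genes was 0.27 to 0.41 in Par and BrM and -0.49 to -0.38 in Int and Lep. In MDA-MB-231 it was 0.488 in Par 1 and -0.353 and -0.465 in the other Par libraries, against 0.451 to 0.463 in Int. In HCC1954 it stayed within -0.06 and 0.09.

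A call here needs a Benjamini-Hochberg adjusted p below 0.05 over all tested genes of the model together with a log2 fold change of 1 or more in either direction. The fold changes are differences of log2(normalized count + 1), given with their standard error, from limma fits over all libraries of a model. The 5 comparisons of a model share libraries: Int, Lep and BrM are all set against the same Par libraries, and Lep enters 3 of the comparisons. Tables were normalized separately, so no test crosses models, and values of different models stand side by side only.

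**Figure D1:**
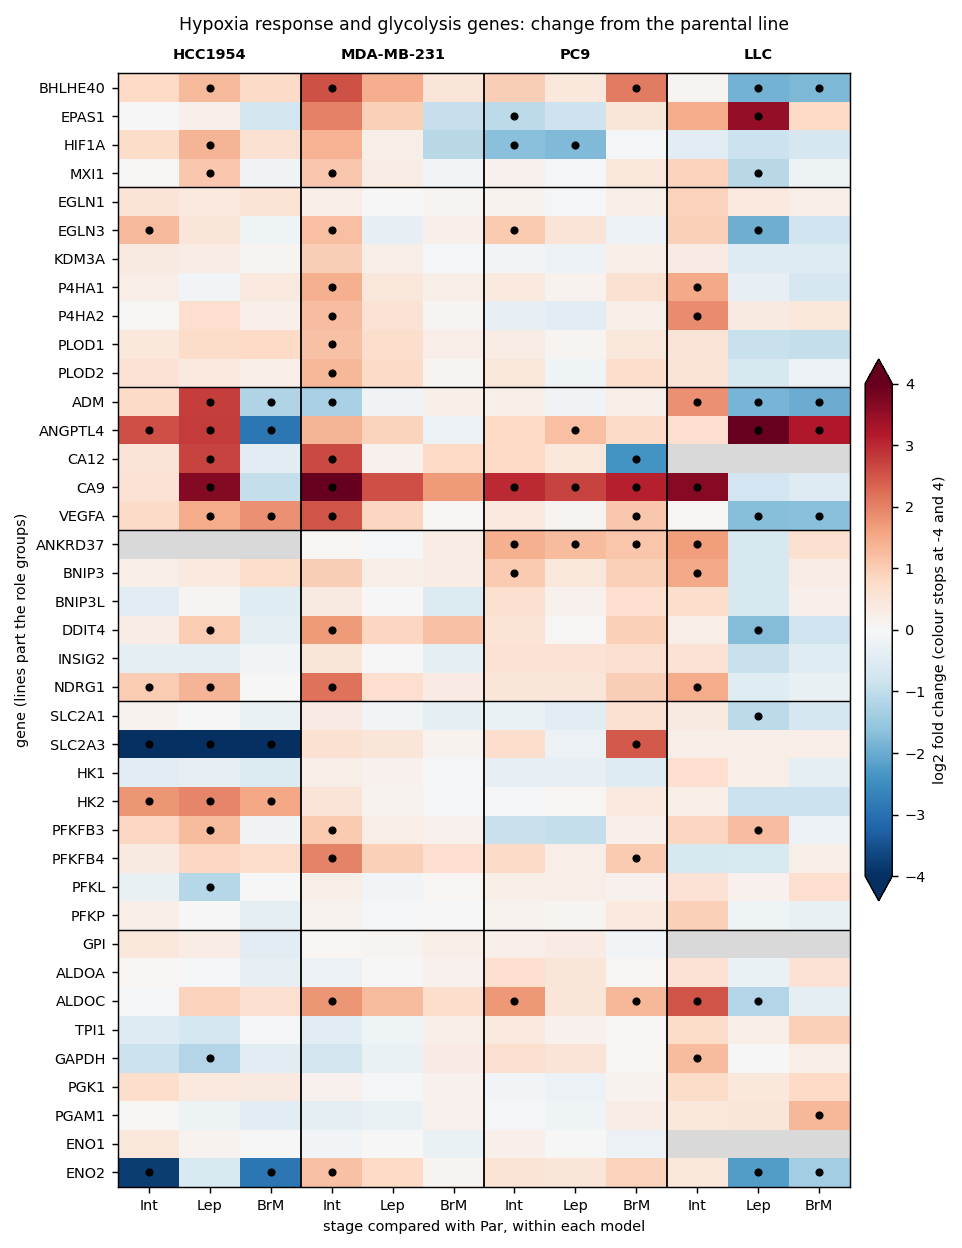
Each cell is the log2 fold change of a member (rows, by role) in Int, Lep or BrM against Par (columns, by model), red for higher and blue for lower, with colours that stop at -4 and 4. Black dots mark calls and grey cells members that were not tested (mouse genes carry their human symbol). MDA-MB-231 Int is mostly red with 16 higher calls, LLC Lep holds 9 lower calls, and the SLC2A3 row is deep blue across HCC1954.

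In HCC1954, 12 of the 38 tested members rose and 3 fell in Lep against Par. Over all 15561 tested genes 26.8% were called, 13% higher and 13.8% lower, so the members' 39.5% lies above that background and leans to the higher side. The median log2 fold change was 0.40 over the members and -0.02 over all genes. Int against Par had 4 higher and 2 lower members (21.2% of all genes called, 6.6% higher and 14.6% lower), fewer calls with a median of 0.32 against 0.01 over all genes, and 24 members were higher and 8 lower at an unadjusted p below 0.05. BrM against Par had 2 higher and 4 lower (23.6%, 9.63% higher and 14% lower), with a median of -0.12. In both cases 15.8% of the members were called, under the share of all genes. In Lep against Int, 5 members were higher and 0 lower by limma (19 higher and 14 lower at an unadjusted p below 0.05, and 0 lower by edgeR and DESeq2), with 15.1% of all genes called, 11.7% higher and 3.47% lower; the members' 13.2% lies near that background. Against BrM, 9 were higher and 2 lower, 28.9% of the members, with 17.1% of all genes called, 10.5% higher and 6.54% lower. Quantile normalization shifted the median of all genes by 0.11 in Int against Par and turned the share of higher calls among all calls from 31.1% to 54.4% there, from 40.8% to 54.8% in BrM against Par and from 77.1% to 58% in Lep against Int. The members then read 4 higher and 3 lower, 2 and 4, and 5 and 0. The endothelial sum and the higher ERBB2 of BrM moved with the BrM calls. The lower KRT8 and KRT18 and the higher VIM and EGFR of Lep moved with the Lep calls, while CDH1 changed little. KRT19 was low in Int too (454 to 611, against 322 to 396 in Lep). ERBB2 was as high in Int (152000 to 153000) as in Lep (144000 to 151000). The macrophage and microglia list had 3 of 5 tested genes higher in Lep than in Int and 4 higher than in BrM, while its sums in Lep (2575 to 2864) were under those of Par (2917 to 2992). The part of these markers in the results was not tested.

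MDA-MB-231 differed in which derivative stood out. Its Int cells had 16 members higher and 1 lower than Par, 43.6% of the 39, where 6.94% of all 15106 tested genes were called, 4.33% higher and 2.61% lower. The members' median was 0.97 and that of all genes 0.02. Leaving out Int replicate 2 ended all 17 calls, and 3 were left without Int replicate 1, 7 without Par replicate 2, 11 without BrM replicate 3 and 21 without Par replicate 1. A fit of the 2 groups alone gave 11. The calls over all genes fell alike, from 1049 to 0, 10, 132 and 336 without Int 2, Int 1, Par 2 and BrM 3, and rose to 3845 without Par 1. In Lep against Par, 0 members were called by limma, where 0.0662% of all genes were (0.0199% higher). At an unadjusted p below 0.05, 9 members were higher and 0 lower, and 1 was called by edgeR and 4 by DESeq2, all higher, in fits without Par replicate 1; limma without that library called 1. BrM against Par also had 0 calls by limma (0.45% of all genes), where 3 members were higher and 2 lower at an unadjusted p below 0.05, 0 by edgeR and 1 by DESeq2, and limma called 1 without Par 3, Lep 1 or Lep 2. Lep against Int had 0 higher and 2 lower members (0.159% of all genes, 0.0265% higher and 0.132% lower), while 1 member was higher and 15 lower at an unadjusted p below 0.05. These 2 calls fell to 0 without either Int library and to 1 without Par 2, Lep 2 or any BrM library. Quantile normalization moved the share of higher calls among all genes from 16.7% to 30% there and left the members at 0 and 2. Lep against BrM had 0 calls by limma (0.827% of all genes, 0.344% higher and 0.483% lower), 8 higher and 1 lower at an unadjusted p below 0.05, 1 by edgeR and 2 by DESeq2. The exon length trend divides the Par libraries of this model, and beyond the length-corrected values its part in the results was not tested.

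In PC9, CA9 was called higher than Par in all 3 derivatives. Int against Par had 5 higher and 2 lower of 39 (17.9%, against 13.9% of 14475 genes, 6.24% higher and 7.71% lower), and Lep against Par 3 higher and 1 lower (10.3%, against 15.1%, 6.65% higher and 8.49% lower). These shares lie near the background. At an unadjusted p below 0.05, 27 members were higher and 6 lower in Int, with a median of 0.38 against 0.02 over all genes. In Lep 13 were higher and 8 lower, with a median of 0.12 against 0.02. BrM against Par had 7 higher and 1 lower (20.5%, against 7.72%, 4.62% higher and 3.1% lower), with a median of 0.45 over members and -0.03 over all genes. Lep and Int differed by call in 1 member, which was lower (0.608% of all genes, 0.228% higher and 0.38% lower). At an unadjusted p below 0.05, 0 members were higher in Lep than in Int and 15 lower. The members' median was -0.18 there, against 0 over all genes. Lep stood below BrM in 6 members and above it in 1 (18.6% of all genes, 7.83% higher and 10.8% lower). The exon length trend sets Int and Lep apart from Par and BrM, and correcting for it lowered the calls of Lep against Par from 4 to 2. Leaving out Int replicate 2 gave 4 calls in Int against Par, and leaving out Lep replicate 2 gave 13 in Lep against BrM. The single call of Lep against Int went to 0 without Int 2 or Lep 1 and to 4 calls without Lep 2.

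In LLC the intermediate and leptomeningeal stages lay on opposite sides of Par, with members' medians of 0.68 and -0.61 against 0 over all genes. Int against Par had 9 of 36 members higher and 0 lower by limma, where 11.5% of all 13494 genes were called, 6.4% higher and 5.08% lower; at an unadjusted p below 0.05 the members were 23 higher and 2 lower, and edgeR and DESeq2 called 0 lower. Lep against Par had 3 higher and 9 lower, where 20.3% were called, 8% higher and 12.3% lower. The direct comparison of Lep with Int had 22 members lower and 1 higher, 63.9% of the members, against 22.5% of all genes (8.47% higher and 14% lower), and a median of -1.31 against -0.01. BrM against Par had 2 higher and 4 lower (23.2% of all genes, 8.14% higher and 15.1% lower), and Lep against BrM 3 higher and 2 lower (18% of all genes, 11.1% higher and 6.85% lower; 2 calls without Lep replicate 2 or BrM replicate 2, and 9 without Lep replicate 3). In Lep against BrM 13.9% of the members were called, and their median was -0.26 against 0 over all genes. At an unadjusted p below 0.05, 5 members were higher and 14 lower in that comparison. Quantile normalization shifted the median of all genes by 0.11 in BrM against Par. The share of higher calls went from 35% to 50.5% there and the members to 4 higher and 5 lower. In Lep against Int that share went from 37.6% to 48.5% and the members to 2 higher and 22 lower. The higher Cd68 of LLC Int and the markers of Lep replicate 2 moved with these calls, and their part in them was not tested.

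**Figure D2:**
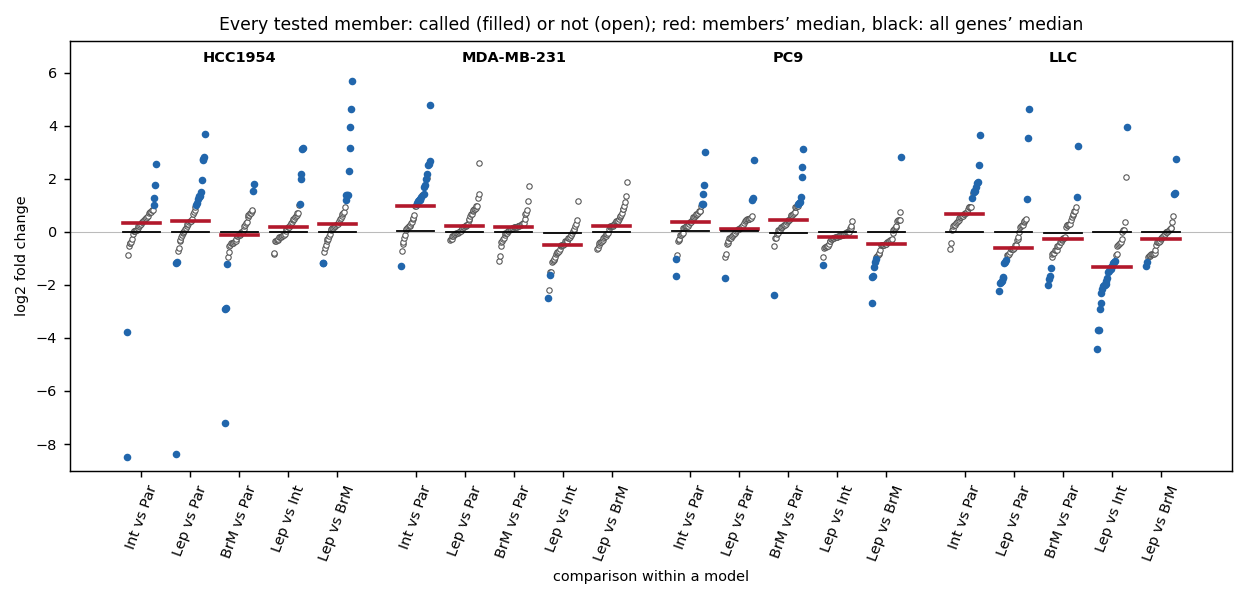
Each point is the log2 fold change of a tested member (vertical axis) in each of the 5 comparisons of a model (horizontal axis), filled where called, with the members' median in red and that of all genes in black. The red line stands at 0.97 in MDA-MB-231 Int against Par and at -1.31 in LLC Lep against Int, while the black lines stay between -0.05 and 0.02.

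Members called higher against Par in the same derivative of 3 models were CA9 and ALDOC in Int of MDA-MB-231, PC9 and LLC, EGLN3 in Int of HCC1954, MDA-MB-231 and PC9, NDRG1 in Int of HCC1954, MDA-MB-231 and LLC, and ANGPTL4 in Lep of HCC1954, PC9 and LLC. Over all genes, 6.6%, 4.33%, 6.24% and 6.4% were called higher in Int of HCC1954, MDA-MB-231, PC9 and LLC. In Lep of HCC1954, PC9 and LLC it was 13%, 6.65% and 8%. The share of all genes called higher in the same derivative of 3 models was not computed. No member was called in the same comparison with Par in all 4 models in the main fits. With quantile normalization CA9 was also called in HCC1954 Int (1.02 against 0.56 in the main fit, limma adjusted p = 9.1e-06). Its Int calls in the other models remained, so CA9 was then called higher in Int of all 4. ADM and ANGPTL4 in HCC1954 and ADM and ALDOC in LLC were called in both directions, depending on the derivative. For the members called higher in the same derivative of 3 models, the 250 bases before the annotated start are shown. They are from RefSeq GRCh38.p14, in the direction of the gene (NDRG1, VEGFA, BNIP3L and SLC2A3 are not in the promoter table). Members called higher in 3 models but in different derivatives, such as BHLHE40 and PFKFB3, are not shown. Capitals mark the core of the HIF site, ACGTG or GCGTG, on either strand (CACGT and CACGC are their reverse complements).
CA9: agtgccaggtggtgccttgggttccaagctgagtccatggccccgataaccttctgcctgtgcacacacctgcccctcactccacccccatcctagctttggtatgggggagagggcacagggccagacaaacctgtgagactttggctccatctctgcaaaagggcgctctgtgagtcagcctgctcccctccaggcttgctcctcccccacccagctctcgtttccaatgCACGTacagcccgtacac
ALDOC: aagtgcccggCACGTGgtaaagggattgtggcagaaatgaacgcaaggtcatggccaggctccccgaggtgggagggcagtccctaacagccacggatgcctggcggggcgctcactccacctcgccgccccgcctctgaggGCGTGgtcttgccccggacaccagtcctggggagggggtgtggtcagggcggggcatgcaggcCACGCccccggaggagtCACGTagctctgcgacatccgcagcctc
EGLN3: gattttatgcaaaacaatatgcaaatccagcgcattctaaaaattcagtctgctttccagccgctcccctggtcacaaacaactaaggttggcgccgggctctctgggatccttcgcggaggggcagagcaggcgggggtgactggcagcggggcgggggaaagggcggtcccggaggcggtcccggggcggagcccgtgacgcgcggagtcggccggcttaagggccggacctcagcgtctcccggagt
ANGPTL4: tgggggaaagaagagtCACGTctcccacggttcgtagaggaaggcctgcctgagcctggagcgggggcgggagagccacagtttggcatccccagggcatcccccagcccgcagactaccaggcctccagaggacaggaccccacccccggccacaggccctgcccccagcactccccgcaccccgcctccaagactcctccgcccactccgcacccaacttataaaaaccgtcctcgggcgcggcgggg
The CA9 window lies at chr9:35673678-35673927 (plus strand), that of ALDOC at chr17:28576896-28577145 (minus), of EGLN3 at chr14:33951075-33951324 (minus) and of ANGPTL4 at chr19:8363905-8364154 (plus). In the CA9 window the only match, on the opposite strand, covers bases 18 to 14 before the start. ANGPTL4 has 1 match, 234 to 230 bases before its start. ALDOC has 3 of ACGTG, where 2 overlap in the palindrome CACGTG, and 2 of GCGTG, and EGLN3 has none of either in this window. Among the 35 members with a window, 48.6% held ACGTG, 48.6% GCGTG and 77.1% either, against 22.4%, 43.1% and 54.8% of 11193 genes tested in a human model and 18.7%, 31.9% and 43.1% of all 27305 windows. CACGTG, which holds ACGTG on both strands, stood in 14.3%, 8.5% and 6.5%. The members' windows were richer in G and C, with a median of 70% against 64.4% and 58%. Both motifs were searched on both strands. These are matches of letters and not measured binding sites.

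HIF1A and EPAS1, the oxygen-labile alpha subunits, moved differently in each model. In HCC1954, HIF1A read 10696, 10577 and 11208 in Par, 17661 and 18662 in Int, 29749, 27463 and 26038 in Lep, and 16268 and 16924 in BrM. All 3 derivatives lay above Par without overlap, and Lep was highest, at a log2 fold change of 1.36 ± 0.04 against Par (adjusted p = 4.9e-12). The differences of Int and BrM from Par, 0.75 ± 0.05 and 0.62 ± 0.05, passed the p threshold but not the fold threshold. EPAS1 read 10747, 10492 and 11007 in Par, 11183 and 10709 in Int, 12800.4, 11999.5 and 12272 in Lep, and 6543 and 6286 in BrM. Its Lep libraries were slightly above Par (0.20 ± 0.03) and its BrM libraries below (-0.74 ± 0.04), neither past the fold threshold.

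PC9 went the other way. HIF1A was 6135, 6256 and 6212 in Par, 2239.8 and 1673 in Int, 1694 and 1985 in Lep, and 6342, 6295 and 5396 in BrM. Int and Lep formed a low pair of groups well apart from Par and BrM, with log2 fold changes against Par of -1.68 ± 0.11 and -1.76 ± 0.11 (adjusted p = 9.5e-08 and 6.3e-08). Lep against BrM was -1.71 ± 0.11. EPAS1 split in the same way, 10883, 10966 and 11309 in Par, 5885 and 4905 in Int, 6824 and 5580.0 in Lep, and 15725, 15129 and 15316 in BrM. It was lower in Int by call (-1.04 ± 0.09), at -0.84 ± 0.09 in Lep against Par, and lower in Lep than in BrM (-1.32 ± 0.09). After correction for exon length, HIF1A remained called in Int and Lep at -1.56 and -1.64, and EPAS1 in Int against Par moved to -0.81 and lost its call, as it did without Int replicate 2 (-0.91).

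In MDA-MB-231 the libraries of a group disagreed. HIF1A was 15294, 6877 and 3715 in Par, 19246 and 19269 in Int, 10917 and 6820.4 in Lep, and 5700.2, 2364 and 2967 in BrM. The Int libraries stood above every other library, but the change against Par, 1.40 ± 0.55, had an adjusted p of 0.11 (1.93 and 0.0087 without Par replicate 1, a call). EPAS1 was 2125, 1466 and 547 in Par, 4130.5 and 5621 in Int, 4269.5 and 1253 in Lep, and 510.4, 719.6 and 690.1 in BrM, a change of 2.01 ± 0.60 in Int (adjusted p = 0.06, and 2.43 with an adjusted p of 0.012 without Par replicate 1). Against BrM, Lep read 1.87 ± 0.60 for EPAS1 and 1.34 ± 0.55 for HIF1A (adjusted p = 0.15 and 0.21), neither a call.

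In LLC, Hif1a was 18049.7, 19499 and 22354 in Par, 14459.7 and 14959.7 in Int, 11123, 12121 and 10049 in Lep, and 14419, 9698 and 13658 in BrM. Every derivative library was below every Par library, and the change in Lep, -0.85 ± 0.15, was not called. Epas1 was near the floor in this model, at 0.711, 1.99 and 0 in Par, 6.03 and 2.25 in Int, 11.5, 53.7 and 10.5 in Lep, and 5.07, 0 and 3.29 in BrM. It was called higher in Lep against Par (3.53 ± 0.80, adjusted p = 0.0033) and against BrM (2.75 ± 0.80). From the recovered reads, 66 in Lep and 4 in Par, the ratio was 20.7 with an exact 95% interval of 7.72 to 78.3, for counting error only, and against BrM (6 reads) 6.83 with 2.97 to 19.3. The fitted changes moved to 1.67 and 1.41 with a pseudocount of 8. Most Lep reads came from replicate 2, the library with the highest Csf1r, Ptprc and Itgam. Without it the change against Par was 2.80 and that against BrM lost its call (adjusted p = 0.062, and 0.06 without BrM replicate 2).

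BHLHE40, a repressor of the circadian and stress response, and MXI1, an antagonist of MYC, complete the transcription factors. BHLHE40 was 2635, 2443 and 2635 in Par and 6389.7, 6704 and 5894 in Lep of HCC1954, 712, 598 and 475 in Par and 2935 and 3995 in Int of MDA-MB-231 and 1572, 2052 and 1607 in Par and 7290.2, 7178 and 7527 in BrM of PC9. These groups did not overlap, with changes of 1.3 ± 0.06, 2.54 ± 0.25 and 2.08 ± 0.19. In PC9 it was lower in Lep than in BrM (-1.66 ± 0.21). In MDA-MB-231 Lep it was 1274 and 1994, above all Par libraries but short of a call (1.44 ± 0.25, adjusted p = 0.082, and a call at 1.58 without Par replicate 1). In LLC Bhlhe40 was 1263, 1098 and 1210.3 in Par, 185, 403 and 436 in Lep, and 339.9, 360.2 and 333 in BrM, with calls of -1.89 in Lep and -1.79 in BrM against Par. MXI1 rose by about 1 in HCC1954 Lep (1.07 against Par) and MDA-MB-231 Int (1.09), stood 1.03 above Int and 1.21 above BrM in HCC1954 Lep, and fell in LLC Lep (-1.12).

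**Figure D3:**
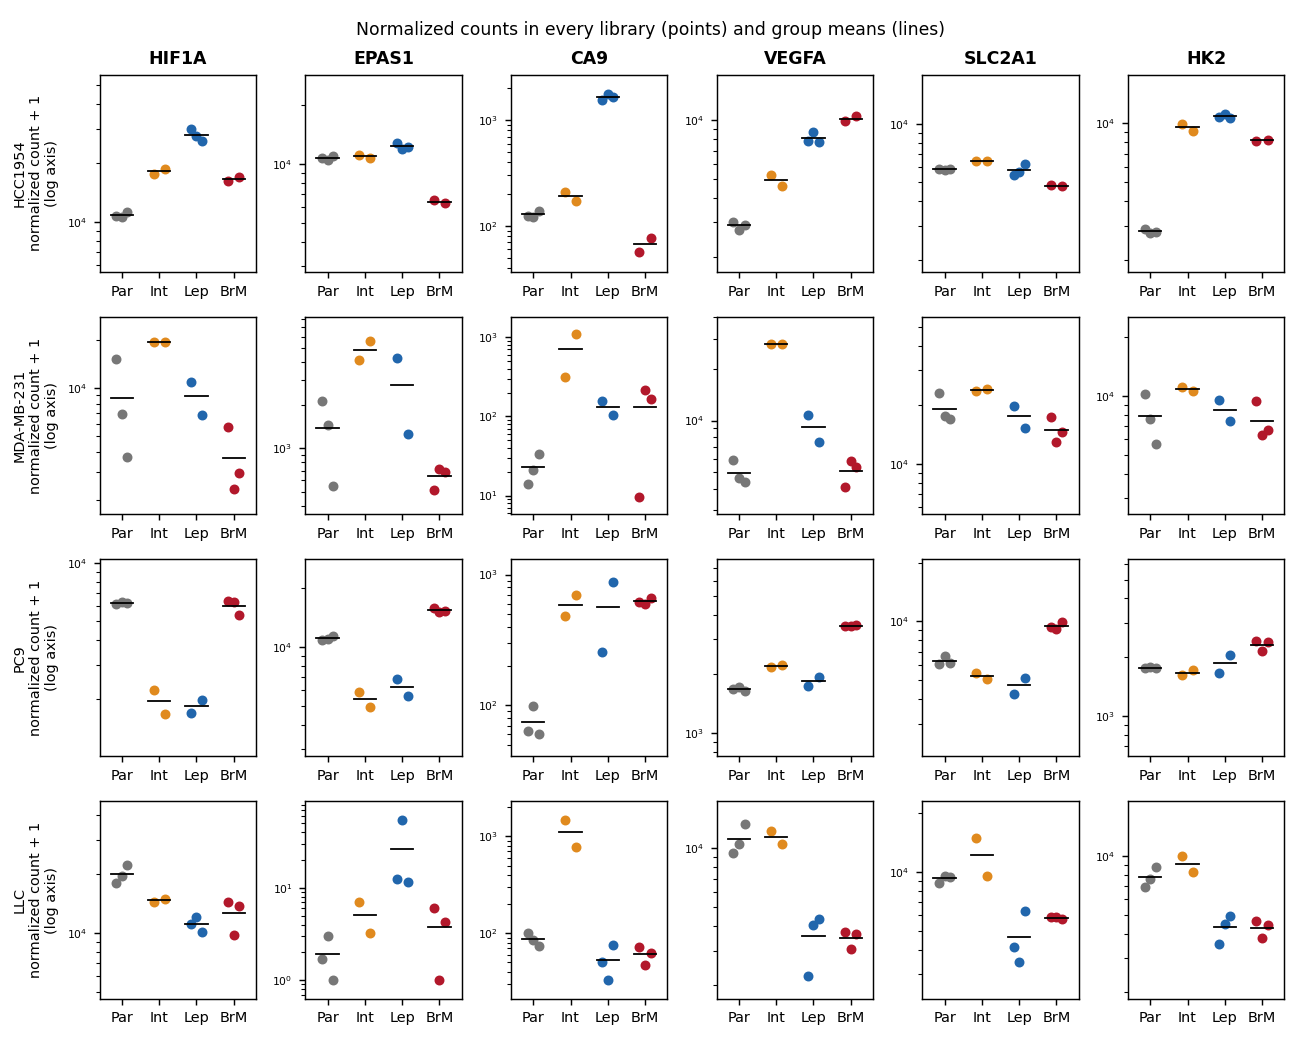
Points are single libraries and lines group means of the normalized count plus 1 (vertical log axes, scaled per panel) for the 6 genes given in every model, by stage (horizontal axis). HIF1A of PC9 shows Int and Lep at 1673 to 2240 below Par and BrM, CA9 shows Lep high in HCC1954 and Int high in MDA-MB-231 and LLC, and HK2 shows all HCC1954 derivatives above Par.

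Among the oxygen sensors and dioxygenases, 5 of 7 members rose in MDA-MB-231 Int against Par, where 4.33% of all genes were called higher (6 higher and 0 lower at an unadjusted p below 0.05, by limma). EGLN3, the prolyl hydroxylase that HIF itself induces, went from 183, 206 and 246 in Par to 437 and 532 in Int, and the collagen prolyl hydroxylase subunit P4HA1 from 2739.9, 2631 and 3197 in Par to 7085 and 8050.0 in Int. Both groups were apart, with changes of 1.20 ± 0.29 and 1.41 ± 0.20. P4HA2 (1.25) and the collagen lysyl hydroxylases PLOD1 and PLOD2 (1.18 and 1.33) also rose. EGLN1, the main prolyl hydroxylase, and the histone demethylase KDM3A were called in no comparison of any model, with log2 fold changes of -0.53 to 0.92 and -0.83 to 0.97.

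EGLN3 rose in Int of HCC1954 too, from 2917, 2803 and 2915 in Par to 8225 and 5983 in Int, by 1.29 ± 0.09 (adjusted p = 3e-08), and in Int of PC9 from 472, 548 and 555 in Par to 909 and 1283 in Int, by 1.04 ± 0.12. The PC9 value passes the fold threshold narrowly, and the call ended without Par replicate 1 (0.97) or Int replicate 2 (0.79). In LLC Int the hydroxylase subunits led: P4ha1 was 9925, 9383 and 9162 in Par and 30030.4 and 24787 in Int (1.52 ± 0.12) and P4ha2 1189, 1164 and 1143 in Par and 4940.1 and 3778 in Int (1.89 ± 0.23). Lep against Int then had 5 of 7 lower (14% of all genes), Egln3 by most, from 18619 and 12749 in Int to 1697, 1457 and 3587 in Lep (-2.90 ± 0.30). Egln3 was also below Par in LLC Lep (-1.95 ± 0.27), and below BrM (-1.15), a call that ended without Lep replicate 2 (-0.90). In HCC1954 Lep 0 members of this group were called by limma, while 6 were higher and 0 lower at an unadjusted p below 0.05.

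CA9, a membrane enzyme that hydrates carbon dioxide outside the cell and a widely used marker of hypoxia, had the largest rise of any member in HCC1954 Lep. It read 124, 119.7 and 138 in Par, 207 and 172 in Int, 1548, 1747 and 1645 in Lep, and 55.7 and 76.2 in BrM. The Lep libraries stood apart from all others, with changes of 3.68 ± 0.12 against Par (adjusted p = 4.6e-12), 3.12 ± 0.13 against Int and 4.64 ± 0.13 against BrM. CA12, a related membrane carbonic anhydrase, followed the same order at 506, 472 and 437 in Par, 607 and 751 in Int, 3116, 3044 and 3068 in Lep, and 374 and 322 in BrM, 2.71 ± 0.08 against Par, 2.19 ± 0.09 against Int and 3.14 ± 0.09 against BrM.

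In MDA-MB-231, CA9 read 13.1, 19.7 and 32.3 in Par, 309 and 1098 in Int, 157 and 102 in Lep, and 8.58, 217 and 164 in BrM. Int and Lep lay above Par, and BrM 1 lay below it. The Int change was 4.77 ± 1.19 (adjusted p = 0.041), and the call ended with no filter on low values (adjusted p = 0.056) and on leaving out any of 5 libraries (Par 2, Par 3, Int 1, Int 2 or BrM 3). The Lep change, 2.58 ± 1.19, had an adjusted p of 0.5. CA12 was 472, 328 and 403 in Par, 2500.3 and 2490.2 in Int, and 571 and 348 in Lep here. It rose in Int by 2.65 ± 0.25 and was lower in Lep than in Int by call (-2.48 ± 0.27, adjusted p = 0.013); both calls ended without either Int library, and the latter with the 2 groups alone.

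In PC9 all derivatives held more CA9 than Par: 62.5, 97.7 and 59.4 in Par, 477 and 697 in Int, 254 and 883 in Lep, and 611, 598 and 656 in BrM. No derivative library overlapped Par, and the changes were 3.00 ± 0.38, 2.71 ± 0.38 and 3.10 ± 0.34 in Int, Lep and BrM (adjusted p = 1.7e-05, 3.9e-05 and 1.4e-05). The Lep libraries differed among themselves, and the Lep change was 3.61 without replicate 1 and 1.82 without replicate 2. CA12 of PC9 was 71.1, 83.1 and 90.5 in Par, 126 and 97.8 in Lep, and 17.7, 14.4 and 12.5 in BrM, low in BrM alone: -2.38 ± 0.19 against Par and 2.83 ± 0.21 for Lep against BrM. In LLC, Car9 was 99.6, 83 and 72.5 in Par, 1466 and 773 in Int, 49.8, 32 and 74.5 in Lep, and 71, 45.8 and 60.9 in BrM. Only the Int libraries were high, by 3.64 ± 0.37 against Par (adjusted p = 6e-05), and Lep against Int was -4.41 ± 0.37 (adjusted p = 5.1e-06).

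VEGFA, the main vascular growth factor, read 3019, 2739 and 2924 in Par, 5247 and 4598 in Int, 7877, 8659.6 and 7729.5 in Lep, and 9859 and 10478 in BrM of HCC1954. It was higher in every derivative library, with calls in Lep (1.48 ± 0.06) and BrM (1.81 ± 0.06), and at 0.76 ± 0.06 in Int. In MDA-MB-231 it read 5874, 4598 and 4383 in Par, 28080.2 and 28119 in Int, 10720.1 and 7541 in Lep, and 4070.3, 5788 and 5373 in BrM. Int was far above the rest (2.52 ± 0.22, adjusted p = 0.0033), and the Lep libraries lay between (-1.64 ± 0.24 against Int). That last call, at an adjusted p of 0.046, ended with no filter (0.054), a filter of 100 (0.056), the 2 groups alone (0.14), a replicate block (0.059) and on leaving out any of 7 libraries.

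PC9 VEGFA was 1680.2, 1719.8 and 1638 in Par, 2155 and 2227 in Int, 1733 and 1927 in Lep, and 3527, 3513 and 3563 in BrM, a rise called in BrM (1.07 ± 0.05). LLC Vegfa was 9471, 10559.7 and 13315 in Par, 12289.7 and 10536 in Int, 2219, 4046 and 4349.7 in Lep, and 3712, 3061 and 3638 in BrM. Here Lep and BrM fell to below every Par and Int library, with changes of -1.70 ± 0.22 and -1.67 ± 0.22 against Par and -1.75 ± 0.25 for Lep against Int. So the same gene was called higher in HCC1954 Lep and lower in LLC Lep; the difference between models was not tested.

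ADM, a vasodilator peptide, and ANGPTL4, a secreted inhibitor of lipoprotein lipase, moved further than VEGFA in several groups. ADM of HCC1954 was 1416, 1421 and 1368 in Par, 1891 and 2954 in Int, 9904, 9447 and 9087 in Lep, and 616 and 599.9 in BrM, highest in Lep (2.76 ± 0.11) and lowest in BrM (-1.20 ± 0.12), with Lep 2.0 ± 0.12 above Int and 3.96 ± 0.12 above BrM. In MDA-MB-231 it was the only member called lower in Int, at 7872, 9191 and 10476 in Par and 2967 and 4630.1 in Int (-1.3 ± 0.25), a call that ended with the 2 groups alone and without Par 2, Par 3, Int 1 or Int 2. In LLC, Adm was 1834, 1452 and 1314 in Par, 5397 and 5395 in Int, 297, 274 and 888 in Lep, and 370.4, 399.5 and 370.4 in BrM. It was higher than Par in Int (1.83 ± 0.38), lower in Lep (-1.86 ± 0.34) and BrM (-2.0 ± 0.34), and differed between Lep and Int by -3.69 ± 0.38.

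ANGPTL4 rose in Lep of 3 models. HCC1954 had 124, 62.8 and 119 in Par, 716 and 473 in Int, 654, 764 and 644 in Lep, and 9.06 and 16.7 in BrM, so Int (2.57 ± 0.29) and Lep (2.80 ± 0.26) were above Par and BrM below (-2.88 ± 0.29). Lep was 5.68 ± 0.29 above BrM there (5.08 with a pseudocount of 8). In PC9 it went from 139.8, 149 and 139 in Par to 241 and 456 in Lep (1.21 ± 0.26). That call ended without Lep replicate 2 (0.76) and with the length correction (0.90). LLC had the largest rise of the 4 models, 91.8, 102 and 58.3 in Par, 63 and 269.5 in Int, 2799, 3002 and 1030.3 in Lep, and 741, 843 and 723 in BrM, with 4.63 ± 0.49 in Lep (adjusted p = 1.9e-05) and 3.21 ± 0.49 in BrM against Par. The LLC Lep libraries were above Int (3.96 ± 0.54, and 2.92 without Int 1) and BrM (1.42 ± 0.49, adjusted p = 0.031), the latter lost with no filter and on leaving out any of 5 libraries (Lep 1, Lep 2 or a BrM library).

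The mitophagy, stress and signalling members had the most calls in LLC, where all 6 were called lower in Lep than in Int. In that comparison 14% of all genes and 22 of the 36 members were called lower, so the fall was not particular to this group. Ndrg1, a stress-induced protein that restrains growth, was 4599.9, 5091 and 5609 in Par, 16417 and 12491 in Int, and 2212, 3724 and 5722 in Lep, and Bnip3, a mitophagy receptor, 1746, 1287 and 1213 in Par, 4675 and 3431 in Int, and 888, 630.1 and 1287 in Lep. Both rose in Int (1.49 ± 0.29 and 1.52 ± 0.26) and were -1.99 ± 0.29 and -2.16 ± 0.26 in Lep against Int. Ankrd37 rose in Int too (1.68), from 117, 71.7 and 69 in Par to 364 and 198 in Int. Bnip3l, a relative of Bnip3, and Insig2, which retains a sterol sensor in the endoplasmic reticulum, were called in that comparison alone (-1.35 and -1.47). Against BrM, Lep was lower in Ankrd37 (-1.29), a call lost without Lep 2 or BrM 2. Ddit4, an inhibitor of mTORC1 signalling, fell in Lep against Par (-1.75 ± 0.21), from 6817, 5988 and 5742 in Par to 1184, 2275 and 2294 in Lep.

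NDRG1 of HCC1954 was 4324, 4012 and 4272 in Par, 9154 and 7716 in Int, 10534, 11414 and 10235 in Lep, and 4085 and 4207 in BrM, called in Lep (1.35 ± 0.06) and, at the edge of the fold threshold, in Int (1.00 on the log2 scale, and 0.88 to 1.00 in 8 alternatives that ended the call, the replicate block at 0.99 among them). In MDA-MB-231 Int it went from 4089, 4594 and 6304 in Par to 17803 and 27896 in Int (2.18 ± 0.41), and DDIT4 from 2157, 2224 and 3061 in Par to 7332 and 8589 in Int (1.70 ± 0.26). DDIT4 was 5091, 5865 and 5532 in BrM of that model, above all Par libraries but not called (1.16, adjusted p = 0.064, and a call without Par 3 or either Lep library). In HCC1954 Lep DDIT4 rose by 1.01. PC9 had ANKRD37 higher in Int, Lep and BrM at low levels, 12.3, 17.1 and 10.8 in Par, 42.1 and 32.8 in Int, 31.5 and 34.3 in Lep, and 27.1, 31.5 and 29.9 in BrM. Its changes were 1.43, 1.26 and 1.10, and the length correction took the Int and Lep values to 0.96 and 0.79, short of a call (0.95 in Lep with a pseudocount of 8). BNIP3 rose in PC9 Int, from 671, 668 and 721 in Par to 1232 and 1606 in Int (1.03). The ANKRD37 values of HCC1954, under the filter, ran from 3.88 to 14.2.

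Glucose enters through SLC2A1 and SLC2A3, also known as GLUT1 and GLUT3. SLC2A1 was called against Par in LLC alone. It read 5886, 5789 and 5836 in Par, 6443 and 6409 in Int, 5455, 5639.7 and 6192 in Lep, and 4822 and 4819 in BrM of HCC1954, with a Lep change of -0.02 ± 0.04 and overlapping groups, and 22908, 17579 and 16837 in Par, 23499.6 and 23977 in Int, 19845 and 15225 in Lep, and 17334, 12979.6 and 14535 in BrM of MDA-MB-231, where no comparison was called. In PC9 it read 6069.5, 6674 and 6114 in Par, 5416 and 5085 in Int, 4265 and 5143 in Lep, and 9368, 9167 and 9943 in BrM, and Lep was lower than BrM (-1.02 ± 0.08), a call lost with the length correction (-0.93) and without Lep 1 (-0.88) or BrM 3 (-0.98). LLC Slc2a1 read 8826, 9569.9 and 9441 in Par, 14962 and 9597 in Int, 4123, 3459 and 6330.2 in Lep, and 5858, 5869 and 5762 in BrM, and fell in Lep (-1.05 ± 0.20), a call lost without Lep 1 (-0.99) or Lep 2 (-0.86).

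SLC2A3 lost nearly all its reads in the HCC1954 derivatives. It read 802, 678 and 743 in Par, 1.05 and 1.05 in Int, 0, 2.16 and 2.5 in Lep, and 3.88 and 4.17 in BrM, that is 1867 reads in the Par libraries against 4 in Int, 4 in Lep and 7 in BrM. The ratio of Par to Lep was 478 (exact 95% interval 187 to 1760, for counting error only), that of Par to Int 706 (275 to 2600) and of Par to BrM 184 (88.9 to 457). The fitted log2 changes, -8.50, -8.38 and -7.20, depend on the pseudocount and read -6.37, -6.30 and -5.96 with a pseudocount of 8. Lep and BrM differed by call (-1.17), at values so near 0 that 6 alternatives ended it. PC9 showed a rise in BrM instead: 1289, 1351 and 1344 in Par, 1742 and 2696 in Int, 746 and 1675 in Lep, and 7527, 6527 and 7743 in BrM, 2.45 ± 0.22 against Par, with -2.70 ± 0.25 for Lep against BrM (-2.11 without Lep 1). Compared per kilobase of exon, HCC1954 Par had 189.3 normalized counts of SLC2A3 and 1465 of SLC2A1, and HCC1954 Lep 0.397 and 1446.

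HK2, the hexokinase induced by HIF that traps glucose in the cell, rose in every HCC1954 derivative. It read 2867, 2748 and 2796 in Par, 9949.6 and 9166 in Int, 10787, 11235 and 10645 in Lep, and 8138 and 8260.3 in BrM. Changes of 1.77 ± 0.04, 1.96 ± 0.03 and 1.55 ± 0.04 in Int, Lep and BrM had adjusted p of 4.5e-13, 2.1e-14 and 8.2e-13. HK1, the constitutive hexokinase, was not called in HCC1954 and was lower in every derivative library (9757, 9652 and 9499 in Par against 6438 to 7838). Per kilobase of exon the level of HK2 went from 471.9 in Par to 1833 in Lep, and that of HK1 from 2064 to 1649.

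HK2 was not called against Par elsewhere. It was 10261, 7657 and 5672 in Par, 11155 and 10573 in Int, 9519.6 and 7464 in Lep, and 9436, 6327 and 6726 in BrM in MDA-MB-231, where libraries of Par overlapped those of Lep and BrM. PC9 had 1765, 1782 and 1766 in Par, 1627 and 1713 in Int, 1661 and 2064 in Lep, and 2430.1, 2141 and 2394 in BrM, and LLC 6926, 7606 and 8766 in Par, 9938 and 8233 in Int, 3540.3, 4452 and 4919 in Lep, and 4622, 3801 and 4428 in BrM. LLC Lep and BrM lay below Par without a call (-0.86 ± 0.15 and -0.86 ± 0.15), and Lep below Int by call (-1.08 ± 0.16), lost without Int 1 or Lep 1.

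The bifunctional enzymes PFKFB3 and PFKFB4 set the level of the fructose bisphosphate that activates phosphofructokinase. PFKFB3 rose in HCC1954 Lep, from 8349.8, 8276 and 8068 in Par to 19758, 20031 and 18989 in Lep (1.25 ± 0.03), in MDA-MB-231 Int (1.05 ± 0.19) and in LLC Lep, from 691, 935 and 1055 in Par to 1878, 2106 and 2320.0 in Lep (1.25 ± 0.17). In LLC Lep it also stood above BrM (1.48), and in HCC1954 Lep (1.40). PC9 was the reverse, with Lep below BrM: 924 and 995 in Lep and 2168, 2052 and 2119 in BrM (-1.14 ± 0.06). PFKFB4 rose in MDA-MB-231 Int, from 529, 487 and 603 in Par to 2050.2 and 2248 in Int (2.0 ± 0.18), and in PC9 BrM (1.06). PFKL, a phosphofructokinase subunit, fell in HCC1954 Lep from 3696, 3607 and 3439 in Par to 1615, 1571 and 1684 in Lep (-1.14 ± 0.04), and PFKP was called in LLC Lep against Int alone (-1.13).

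**Figure D4:**
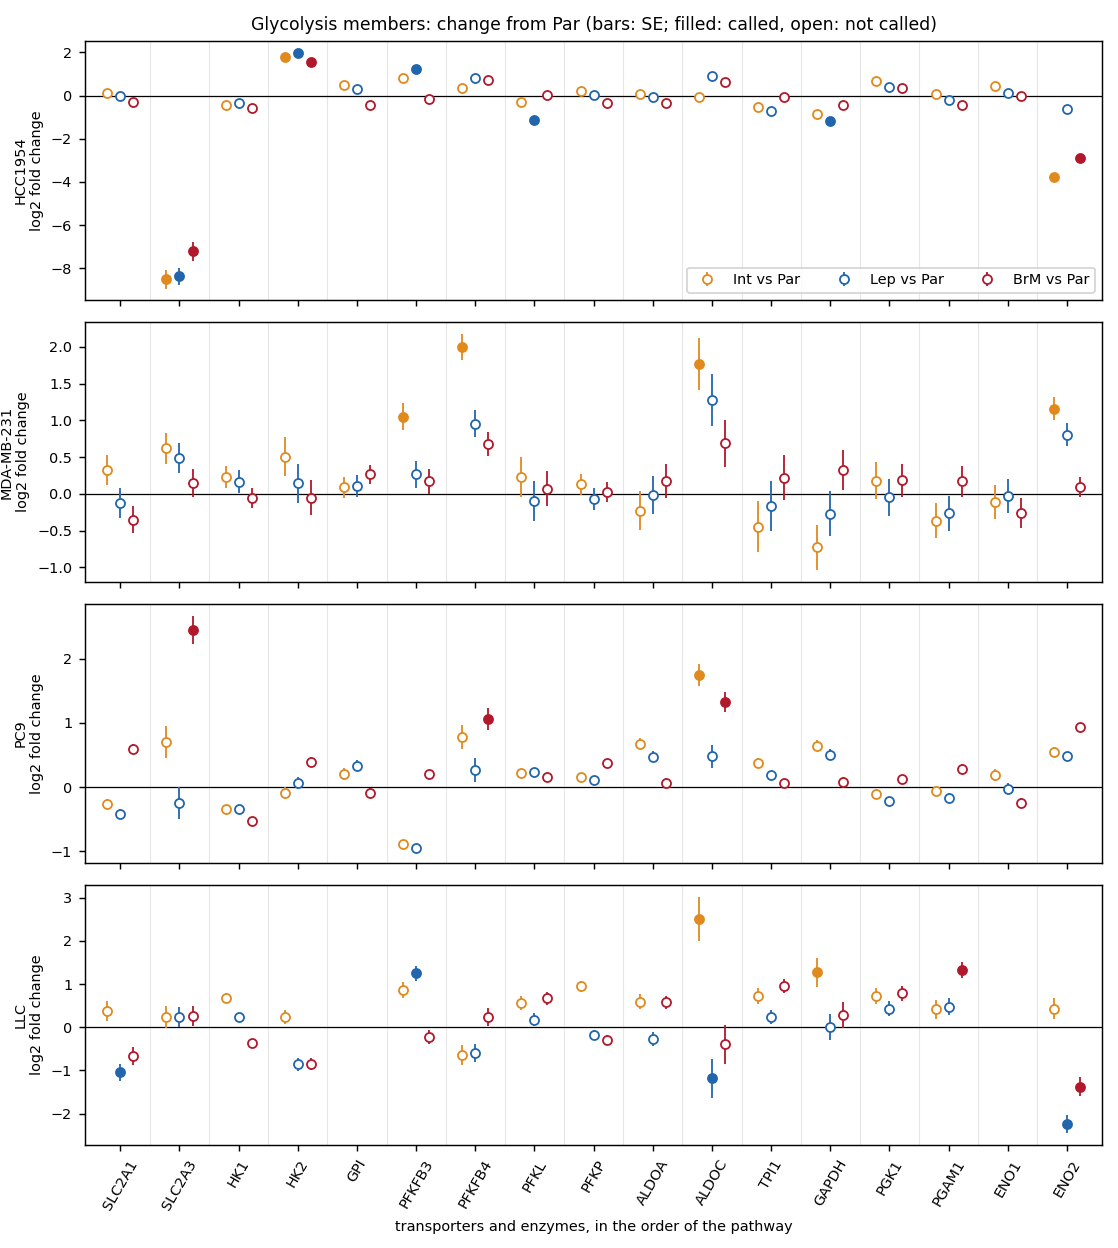
Log2 fold changes against Par (vertical axes, bars are standard errors) of the glucose transporters and glycolytic enzymes in pathway order (horizontal axis), for Int, Lep and BrM of each model, filled where called. Filled points include SLC2A3, HK2 and ENO2 in HCC1954, and in the run from TPI1 to ENO1 the only calls are GAPDH in HCC1954 Lep and LLC Int and Pgam1 in LLC BrM.

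Of the 9 members at the reversible steps of glycolysis, 5 had no call where they were tested. These were GPI, ALDOA, TPI1, PGK1 and ENO1, with log2 fold changes between -0.86 and 0.95. GPI and ENO1 were not tested in LLC. There the mouse gene Gpi1, outside the matching rule, read 19100 to 22700 in Par, 26000 to 31900 in Int and 8980 to 12200 in Lep. ALDOC, ENO2, GAPDH and PGAM1 had calls. ALDOC, the brain-type aldolase, rose in Int from 68.5, 104 and 141 in Par to 302 and 392 in Int of MDA-MB-231 (1.77 ± 0.36), from 271, 300.5 and 286 in Par to 852 and 1082 in Int of PC9 (1.74 ± 0.18) and from 39.1, 40.5 and 27.3 in Par to 319.5 and 131 in Int of LLC (2.51 ± 0.51). The LLC call was lost without Int 1 (1.87, adjusted p = 0.064). Lep was lower than Int in PC9 (-1.27 ± 0.19) and LLC (-3.69 ± 0.51, -3.05 without Int 1 and -4.33 without Int 2), and the PC9 call ended with the 2 groups alone (adjusted p = 0.41), without Int 2 or without Lep 1. In MDA-MB-231 Lep ALDOC was 178 and 337, above every Par library but not called (1.28 ± 0.36, adjusted p = 0.26). PC9 BrM also held more of it (1.32). Per kilobase, ALDOC remained far below the muscle-type ALDOA: 474.3 against 33820 in PC9 Int.

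ENO2, the neuronal enolase, differed by model. In HCC1954 it read 683, 619 and 713 in Par, 44.2 and 51.4 in Int, 464, 453 and 393 in Lep, and 77.7 and 101 in BrM, so Int (-3.79 ± 0.13) and BrM (-2.90 ± 0.13) fell by call while Lep stood at -0.62 ± 0.11, not past the fold threshold. Lep was 3.16 ± 0.13 above Int and 2.28 ± 0.13 above BrM. In MDA-MB-231 Int it rose, from 2968, 2908 and 3534 in Par to 6303 and 7715 in Int (1.16 ± 0.16). In LLC it fell in Lep and BrM, 1131, 1139.9 and 1269 in Par, 2201 and 1144 in Int, 256, 222 and 272 in Lep, and 399.5, 531 and 438 in BrM (-2.24 ± 0.21 and -1.38 ± 0.21 against Par). GAPDH fell in HCC1954 Lep, from 156102, 162740.0 and 156769 in Par to 70413, 68507 and 71606 in Lep (-1.18 ± 0.03, and -1.78 with quantile normalization). Gapdh rose in LLC Int, from 2541, 2607 and 1223 in Par to 4817 and 4899.9 in Int (1.27 ± 0.34), and Pgam1 in LLC BrM, from 1719.9, 1384 and 1656 in Par to 3792, 4349 and 3745 in BrM (1.32 ± 0.19).

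Several of these enzymes have near-identical processed copies, so reads could be split between a gene and its copies, and values of GAPDH, ENO1, PGK1, TPI1, ALDOA and PGAM1 are uncertain. In LLC the Eno1 row read 0 to 7.67 while the row of a close copy, Gm5506, read 2910 to 7870, and Gapdh stood at 1223 to 4900 against 68507 or more in the human tables. The members together took 1.14% to 1.32% of the normalized counts in HCC1954, 1.19% to 1.66% in MDA-MB-231, 2.05% to 2.73% in PC9 and 0.39% to 0.86% in LLC. In PC9 both Int libraries had 2.73% against 2.05% to 2.16% in Par. GAPDH alone took 1.52% and 1.55% in these Int libraries and 1.01% to 1.06% in Par, and the part of the exon length trend was not tested. In LLC Int the members had 0.722% and 0.863% against 0.521% to 0.559% in Par and 0.394% to 0.431% in Lep.

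The wider pathway was read from lists of other genes. Of 12 regulators of HIF (such as VHL, ARNT and the coactivators EP300 and CREBBP), 10 or 11 were tested per model. Their only calls against Par were lower ones: 1 in HCC1954 Int, 2 in PC9 Lep (CREBBP at -1.16 and EP300 at -1.04), 1 in PC9 Int and 1 in LLC BrM. Over all genes 14.6%, 8.49%, 7.71% and 15.1% were called lower there, in the same order. At an unadjusted p below 0.05, up to 4 were higher and up to 7 lower in a comparison with Par. Of 40 further hypoxia targets, 13 rose and 1 fell of 36 tested in HCC1954 Lep, with a median of 0.64. Over all genes 13% were called higher and 13.8% lower there. Among these targets LOX, which cross-links collagen, rose by 3.28 ± 0.09, and VLDLR, a lipoprotein receptor, by 2.49 ± 0.11. In MDA-MB-231 Int 8 rose and 0 fell by limma of 37 (16 higher and 3 lower at an unadjusted p below 0.05). Over all genes 4.33% were called higher and 2.61% lower there. The targets were led by STC1, a secreted glycoprotein (2.61 ± 0.31), with PDK1, which holds back pyruvate from the mitochondria, at 1.42 ± 0.20.

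PC9 BrM had 11 of 37 further targets higher and 0 lower by limma (22 higher and 6 lower at an unadjusted p below 0.05), with VLDLR at 2.16 ± 0.17. Over all genes 4.62% were called higher and 3.1% lower there. PC9 Lep had 2 higher and 4 lower, near the 6.65% and 8.49% of all genes. LLC Int had 9 of 34 higher and 4 lower (6.4% and 5.08% of all genes). LLC Lep had 5 higher and 9 lower against Par (8% and 12.3% of all genes) and 3 higher and 14 lower against Int (8.47% and 14%). Stc1 fell in LLC Lep by 4.61 ± 0.36 and the transferrin receptor Tfrc rose by 2.70 ± 0.28. Of 25 further glycolysis and glycogen enzymes, 16 to 18 were tested per model. No comparison with Par had more than 4 calls in a direction. That was LLC BrM, with 4 of 16 higher and 2 lower, where 8.14% of all genes were called higher and 15.1% lower. In HCC1954 Lep, BPGM, a mutase that makes bisphosphoglycerate, rose by 2.38 ± 0.06, and the hexokinase-like HKDC1 went from a mean of 1897 to 2.73. The lactate exporter Slc16a3 rose in LLC Int by 1.90 ± 0.24.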

How the data were processed

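RNA was measured in 41 libraries. Per the labels' protocols, 500 ng of RNA (integrity above 9.5) was prepared with a TruSeq v2 kit and read paired-end, with 75 bases for MDA-MB-231 and 50 for the rest. Per the submitters' processing notes, the tools include HTSeq 0.5.4, DESeq2 and FastQC 0.11.3, with genome builds mm10 (GRCm38) and hg19 (GRCh37). Alignment steps are not given in the sources used here. For each model the authors deposited a table of normalized counts, signal values equal to reads divided by the size factor of the library. Values were whole multiples of a step particular to the library (tolerance 0.01, 100% of values), so reads were recovered, except for MDA-MB-231 Par 1, whose step was not accepted and which the count tests left out. Some recovered totals exceed the highest number of read pairs in the labels, so the 2 ends of a pair may have been counted apart, and the counting intervals may then be too narrow.

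From these values genes with at least 10 in 2 libraries were tested with limma 3.58.1 (trend, R 4.3.3) on log2(value + 1), two-sided, all libraries of a model in 1 fit, 5 comparisons per model. Fold changes on this scale understate the change of low genes. The code was tested on simulated data. Alternatives were edgeR 4.0.16 and DESeq2 1.42.0 on recovered reads, a pseudocount of 8, other filters, quantile normalization, 2 groups alone, a replicate block, a correction for exon length (human only, with a length for 88.2% to 88.6% of genes) and leaving out each library. Chi-square tests found no duplicate libraries. Correlations of the deviations from group means were computed only between libraries with the same replicate number. They therefore cannot show whether the numbers pair libraries. The largest were in MDA-MB-231, for Par with BrM (0.5, 0.265 and 0.231) and for Par 1 with Lep 1 (0.37).

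Members, lists and rules were chosen with earlier results of these data known. Given in full in every model were CA9, VEGFA, SLC2A1, HK2, HIF1A and EPAS1; then called members, the 6 largest in each direction in Lep against Par and the 4 largest elsewhere, and where none was called up to 3 with an unadjusted p below 0.05 and a mean of at least 100. Lists of host cell markers, HIF regulators, further hypoxia targets and further glycolysis enzymes were read by counts. Promoter windows are RefSeq GRCh38.p14, 1 a gene, and 35 of 39 members matched.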

Additional observations from a re-analysis of the deposited data

Results flagged for a closer look

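Some members were called in opposite directions in the same derivative of 2 or 3 models, with every library of the derivative on 1 side of every Par library of its model. The difference between models was not tested, since the tables were normalized separately. The share of all genes called in opposite directions was not computed. In Lep against Par, 13% of all genes were called higher and 13.8% lower in HCC1954, 6.65% and 8.49% in PC9, and 8% and 12.3% in LLC. In Lep against Par, HCC1954 and LLC differed in VEGFA (1.48 and -1.70), ADM (2.76 and -1.86), DDIT4 (1.01 and -1.75), MXI1 (1.07 and -1.12) and BHLHE40 (1.3 and -1.89), all log2 fold changes. DDIT4 and MXI1 in HCC1954 passed the fold threshold narrowly. HIF1A was at 1.36 in HCC1954 and -1.76 in PC9. In Int against Par, HCC1954 had ENO2 at -3.79 and MDA-MB-231 at 1.16, and ADM was at -1.3 in MDA-MB-231 and 1.83 in LLC. In BrM against Par, VEGFA was at 1.81 in HCC1954, 1.07 in PC9 and -1.67 in LLC. ANGPTL4 was at -2.88 in HCC1954 and 3.21 in LLC, SLC2A3 at -7.20 in HCC1954 and 2.45 in PC9, and BHLHE40 at 2.08 in PC9 and -1.79 in LLC.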

How the results depend on the processing

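No value changed direction under an alternative where it was called. Of 95 named calls, 21 were lost on leaving out some library. The named calls are the largest of each comparison and those of the genes given in every model. Losses among the other calls are not in that number. The counts of called members stayed within 1.5 times in HCC1954 under every alternative and moved mostly in MDA-MB-231, where the cause was not tested. In MDA-MB-231 Lep against Par the count went from 0 to 1 with edgeR, 4 with DESeq2 (both without Par replicate 1, a choice made after seeing the data) and 1 with the length correction. BrM against Par went from 0 to 1 with DESeq2 and 1 with the length correction, and Lep against BrM from 0 to 1 with edgeR and 2 with DESeq2. Int against Par went from 17 to 11 with the 2 groups alone. Lep against Int went from 2 to 7 with DESeq2, 4 with the length correction, 1 with no filter, 1 with the filter of 100, 0 with the 2 groups alone and 1 with the replicate block. In PC9, Lep against Par went from 4 to 2 with the length correction and Lep against Int from 1 to 0 with the 2 groups alone. Apart from VEGFA in MDA-MB-231 Lep against Int and NDRG1 in HCC1954 Int, the replicate block changed no call among the named members.

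With each library left out in turn, the MDA-MB-231 counts ran from 0 to 1 in Lep against Par, 0 to 21 in Int against Par, 0 to 1 in BrM against Par, 0 to 3 in Lep against Int and stayed at 0 in Lep against BrM. The PC9 counts ran from 3 to 5 in Lep against Par, 4 to 10 in Int against Par, 7 to 8 in BrM against Par, 0 to 4 in Lep against Int and 6 to 13 in Lep against BrM. The LLC counts ran from 9 to 13, 7 to 11, 6 to 7, 20 to 24 and 2 to 9 in the same order. With 1 library left in a group, that library is assumed to vary like the other groups. The length correction was not run for LLC, for which no exon lengths were used here. Groups of 2 or 3 libraries and low counts (SLC2A3 in HCC1954, Epas1 in LLC) limit the precision.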

Other observations

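Some mouse genes outside the matching rule stand close to it. Car12, the mouse gene of the CA12 name, read 113 to 116 in LLC Par, 878 to 1100 in Int, 737 to 1110 in Lep and 266 to 350 in BrM. Gpi1, the mouse glucose-6-phosphate isomerase, read 19100 to 22700 in Par, 26000 to 31900 in Int, 8980 to 12200 in Lep and 17700 to 21800 in BrM.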
